A study of Mus musculus with 10 samples.

Results

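Translation initiation factor genes were examined in R2 cells, erythroid precursors of the bone marrow (BM) sorted as positive for CD71, the transferrin receptor, and for the red cell marker Ter119. Members were taken by gene symbol alone, as the genes for subunits and paralogues of the factors eIF1, eIF1A, eIF2, eIF2B, eIF3, eIF4, eIF5, eIF5A, eIF5B and eIF6 and for eIF2A and eIF2D. Of 24421 genes in the count table, 41 were members. They comprised 2 genes of eIF2, 5 of eIF2B, 12 of eIF3, 11 of eIF4, 5 genes for start site selection (eIF1, eIF1A and eIF5 with their paralogues) and 6 other factors.

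Initiation brings a ribosome to the start codon of an mRNA. The factor eIF2, loaded with GTP, carries the initiator methionyl-tRNA to the small ribosomal subunit, and eIF2B recharges eIF2 with GTP afterwards. The large complex eIF3 organizes the small subunit, while the eIF4 factors bind the mRNA cap and unwind the leader. In red cell precursors initiation is coupled to heme supply through a kinase that phosphorylates the alpha subunit of eIF2 when heme is short.

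The cells came from lethally irradiated BoyJ recipients of 1000000 donor BM cells, sorted 8 weeks after transplant at about 100000 R2 cells per mouse. All donors carried Rosa-CreERT2, a tamoxifen-activated recombinase that is expressed in most cell types, and all recipients had 2 rounds of tamoxifen (1 mg per day for 5 days, with 2 days between the rounds). The controls therefore had the same recombinase and drug. Ddx41+/- donors had 1 floxed Ddx41 allele, so that loss began after transplant, and Trp53+/- donors had a knockout allele of Trp53 from the germline. The groups were Ddx41+/+ Trp53+/+ (3 mice, replicates 10, 11 and 12), Ddx41+/- Trp53+/+ (2 mice, 32 and 34), Ddx41+/+ Trp53+/- (3 mice, 22, 23 and 24) and Ddx41+/- Trp53+/- (2 mice, 46 and 47). Each library came from 1 recipient, and the labels do not say whether recipients shared a donor. Residual cells of the recipient were not told apart in the counts.

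Libraries held 7866648 to 20283930 counts, of which members took 0.761% to 0.817%. Every member was detected in every library and passed edgeR's filter on low counts, which kept 11846 genes. The least covered was Eif4e3, with 37 to 168 counts. Erythroid markers other than globin were high in every library, with Slc4a1, the band 3 anion exchanger, at 25470 to 30510 CPM (counts scaled to 1000000 per library after TMM normalization), and 11 of 14 listed erythroid genes were above 0 in every library. The 4 globin genes of that list summed to only 0.106 to 1.65 CPM, and 1 of them was at 0 throughout. How reads that match several genes were counted is not given in the sources used here, so a level near 0 in genes with close copies cannot be read as absence of the mRNA, and CPM are relative to the reads that were counted. The same limit holds for the level of members that share sequence with other genes, Eif4a1 (27.7%), Eif1 (25.6%) and Eif3h (16.7% of 75-base stretches) most of all. Markers of other BM cells were present at summed levels of 4532 to 7752 CPM for neutrophils (9 of 9 genes above 0 in every library), 227 to 523 CPM for macrophages (10 of 10) and 5.88 to 12.5 CPM for T cells (5 of 5). B cell markers (12 of 12) summed to 215 to 358 CPM in the Ddx41+/+ Trp53+/+ mice and 363 to 518 CPM in the other genotypes. T cell markers were likewise at 5.88 to 7.12 CPM in the Ddx41+/+ Trp53+/+ mice and 7.24 to 12.5 CPM in the other genotypes. Macrophage markers summed to 227 to 309 CPM in Ddx41+/+ Trp53+/- mice and 354 to 450 CPM in Ddx41+/- Trp53+/- mice. With Trp53+/+ they summed to 281 to 523 CPM in Ddx41+/+ mice and 346 to 424 CPM in Ddx41+/- mice. The part of these cells in the values below was not tested. In sorted bulk cells, fewer cells of a type and less RNA per cell cannot be told apart.

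The targeted genes followed their labels. Ddx41 was at 21.9 to 25.1 CPM in Ddx41+/+ Trp53+/+ mice, 13.8 and 16.5 CPM in Ddx41+/- Trp53+/+ mice, 22.9 to 26.6 CPM in Ddx41+/+ Trp53+/- mice and 12.5 and 15.7 CPM in Ddx41+/- Trp53+/- mice. No Ddx41+/- mouse reached a Ddx41+/+ mouse, and over both Trp53 genotypes edgeR's quasi-likelihood test gave −0.70 on the log2 scale (standard error 0.108) with an adjusted p of 0.0173. Trp53 was at 57.4 to 68.1 CPM in the 5 Trp53+/+ mice and 40.3 to 46.2 CPM in the 5 Trp53+/- mice (log2 fold change −0.48, standard error 0.069, adjusted p = 0.00355).

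The members differed widely in level. Levels between genes are given as RPKM, here CPM per kilobase of the union of a gene's exons, averaged over the 10 mice. Eif1, which keeps scanning accurate, was highest at 386 RPKM, above 99.2% of tested genes. Eif5a, the hypusine-containing factor, followed at 285 RPKM and Eif5, the GTPase-activating protein of eIF2, at 132 RPKM. The least abundant members were Eif2b3 (2.12 RPKM), Eif1a (2.17 RPKM) and Eif4e3 (2.55 RPKM), below the level of the median tested gene. The values per mouse of these 3 genes overlapped, so their order is not resolved.

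**Figure D1:**
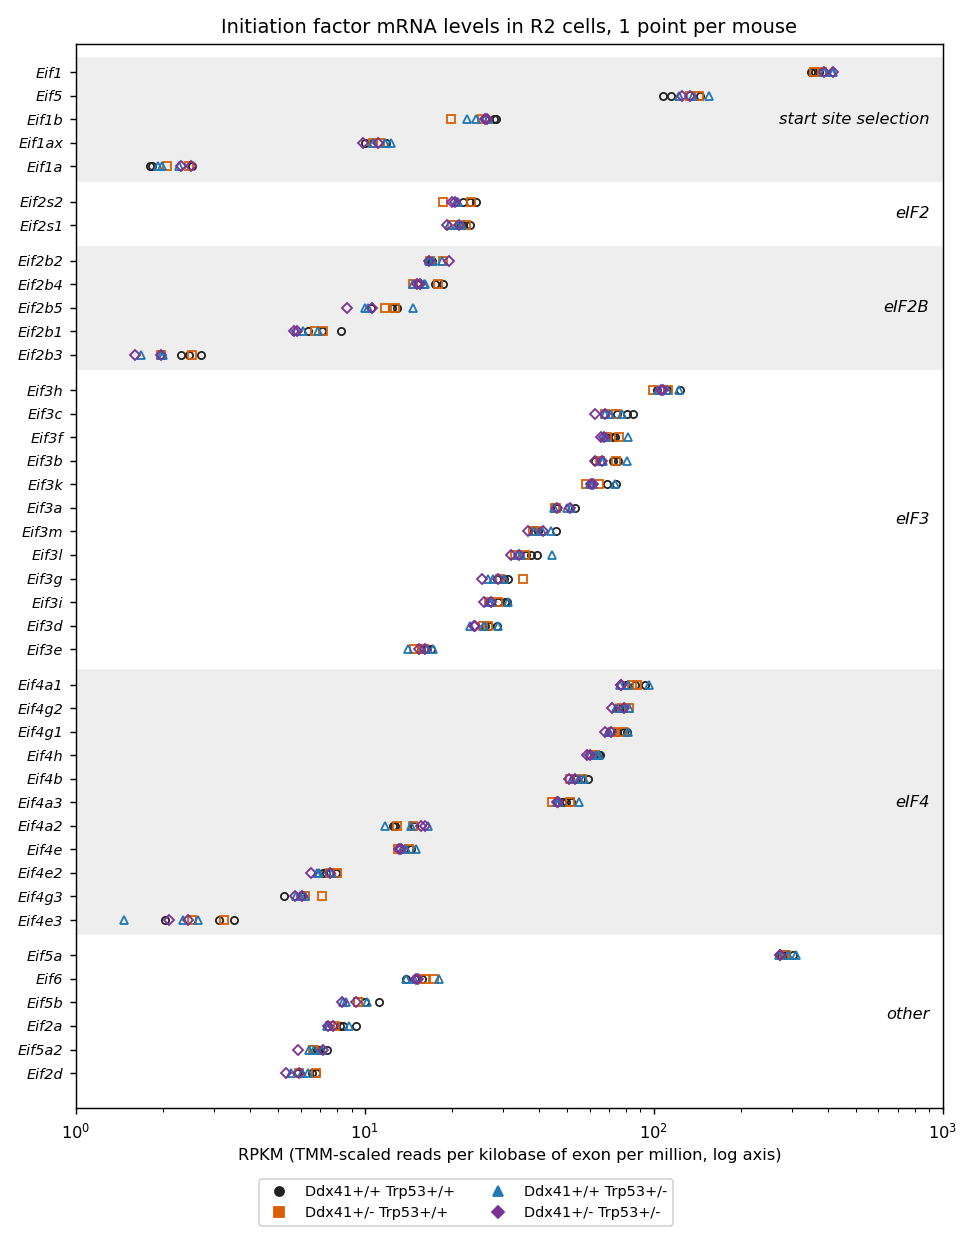
Level of each of the 41 initiation factor mRNAs in each mouse, as RPKM on a log axis, grouped by complex and ordered by mean within it. Symbols mark the 4 genotypes. The gaps between members, from Eif2b3 at 2.12 RPKM to Eif1 at 386 RPKM, are far wider than those between mice.

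Within complexes the levels were even for the 2 eIF2 genes of the rule and uneven elsewhere. The alpha subunit of eIF2, Eif2s1, and the beta subunit, Eif2s2, lay at 21.2 and 21.4 RPKM, with a ratio of 0.945 to 1.07 over the 10 mice. With the length of the longest transcript in place of all exons the median ratio was 0.857. The gamma subunit lies outside the symbol rule because it has 2 genes on the sex chromosomes. Eif2s3x was at 22.1 RPKM, close to the other subunits, and Eif2s3y at 12.8 RPKM. Of the 75-base stretches of Eif2s3x, 35.7% also occur in other genes, so its level is uncertain. Eif2ak1, the heme-regulated eIF2 kinase, was at 221 RPKM, above all members except Eif1 and Eif5a. All 10 libraries expressed Eif2s3y and the Y-linked helicase Ddx3y (11.3 RPKM, against 53.7 RPKM for its X-linked partner Ddx3x).

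The eIF2B subunits, which form 1 complex, were uneven. Eif2b2 (beta, 17.5 RPKM) and Eif2b4 (delta, 16.2 RPKM) were highest, Eif2b5, the catalytic epsilon subunit, was at 11.4 RPKM, Eif2b1 (alpha) at 6.59 RPKM and Eif2b3 (gamma) at 2.12 RPKM. Eif2b3 was the lowest of the 5 in every mouse by a wide margin, and with the length of the longest transcript in place of all exons it was still lowest, at 3.68 RPKM.

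Of eIF3, 12 subunit genes spanned 15.9 RPKM (Eif3e) to 110 RPKM (Eif3h), a 6.91-fold range with a median of 44.3 RPKM. The subunit eIF3j has 2 genes in the table, Eif3j1 and Eif3j2, and both were listed at 0 counts in every library. Of their 75-base stretches, 37.7% in Eif3j1 and 87.4% in Eif3j2 occur in the other gene. Whether this shared sequence bears on the 0 was not tested.

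Paralogues were expressed at unequal levels. Among the eIF4A helicases, Eif4a1 was at 83.9 RPKM, Eif4a3, the core helicase of the exon junction complex, at 48.7 RPKM and Eif4a2 at 14.2 RPKM. The ratio of Eif4a1 to Eif4a2 was 6.13 in the median mouse, and replicates of 1 genotype held both its lowest value (4.62, replicate 23) and its highest (8.19, replicate 22). With the longest transcript its median was 4.255, below that range. Eif4a1 shares 27.7% of its stretches with other genes, pseudogenes among them. Of the cap-binding proteins, Eif4e was at 13.8 RPKM, Eif4e2 at 7.35 RPKM and Eif4e3 at 2.55 RPKM. The gap in the first pair depends on the length used. The median ratio of Eif4e to Eif4e2 was 1.81 with all exons and 1.01 with the longest transcript. Of the scaffolds, Eif4g2, which lacks the eIF4E site, and Eif4g1 were at 77.4 and 74.6 RPKM, and Eif4g3 at 6.04 RPKM. The Eif4g1 to Eif4g2 ratio of 0.844 to 1.08 straddled 1, so these neighbours did not differ beyond the spread between mice.

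The other pairs were dominated by 1 gene. Eif1 stood 12.5-fold to 18.1-fold over Eif1b (25.4 RPKM), and 25.6% of its stretches occur in transcripts of 14 other genes. Eif5a stood 37.4-fold to 48.6-fold over Eif5a2 (6.76 RPKM). The X-linked Eif1ax stood 3.95-fold to 6.16-fold over the autosomal Eif1a. With the longest transcript the median ratios were 22.4 for Eif1 to Eif1b, 69.3 for Eif5a to Eif5a2 and 3.49 for Eif1ax to Eif1a. All of these lay outside the ranges over mice, so the size of each gap depends on the length used.

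The starts of these genes were compared by sequence. RefSeq promoter windows on GRCm38.p6, from 250 bases before to 50 bases after the transcription start, were matched for 33 of the 41 members. Eif4g2, Eif3i, Eif6, Eif2b3, Eif3e, Eif1a, Eif3h and Eif4e3 had no entry. The E-box CACGTG, a palindrome that is bound by Myc and related factors and reads the same on both strands, occurred in 10 of 33 members (30.3%), against 8.09% of 27025 genes with a window and 11.9% of 9047 tested genes. All motifs were searched on both strands. The ETS-type motif CCGGAA occurred in 17 members (51.5%), against 16.7% of all genes and 32.3% of tested genes. The TATA motif TATAAA occurred in 3 members (9.09%, against 8.59% of tested genes), and CCAAT in 12 (36.4%, against 43.2%). No motif searched contains another. A match describes the letters and was not tested as a binding site. An E-box is shown for 5 of the 6 members with a site before the start and outside annotated exons (Eif5a2 is the other). Eif4g1 and Eif5a each have another E-box in a window that overlaps an exon, which is not shown. The sites are given in 30 bases with the motif in capitals, 5′ to 3′ on the strand of the gene.
Eif4a1 (chr11:69672595-69672624, minus strand, 189 bases before the start): cgatcgcctccgCACGTGtaaaggtgctgg
Eif4g1 (chr16:20672661-20672690, plus strand, 54 bases before the start): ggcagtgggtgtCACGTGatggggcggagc
Eif3f (chr7:108934335-108934364, plus strand, 68 bases before the start): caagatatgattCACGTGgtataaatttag
Eif3k (chr7:28981915-28981944, minus strand, 44 bases before the start): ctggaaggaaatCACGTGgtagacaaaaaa
Eif5a (chr11:69921443-69921472, minus strand, 74 bases before the start): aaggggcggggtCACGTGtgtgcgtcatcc

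Whether loss of 1 Ddx41 allele altered initiation factor mRNA was asked first with Trp53+/+. No member passed an adjusted p of 0.05, against 0.625% of tested genes (74 of 11846). At an unadjusted p under 0.05 the count was also 0 of 41, by edgeR and by DESeq2, against 9.64% of tested genes. Of the members, 27 were lower and 14 higher in Ddx41+/- R2 cells, with a median log2 fold change of −0.057 (all tested genes 0.0010, 49.7% lower). The eIF3 genes had a median of −0.086 (10 of 12 lower), eIF2 −0.10 (2 of 2 lower), eIF2B −0.070 (3 of 5), eIF4 −0.0092 (6 of 11), the other factors −0.051 (5 of 6) and start site selection 0.039 (1 of 5). Without replicate 11 of the Ddx41+/+ mice the medians were −0.013 for eIF3 (9 of 12 lower) and −0.010 for all members (23 of 41). The eIF2B median turned to 0.038 without replicate 11 and to 0.062 without replicate 32. The eIF2 median turned to 0.012 (0 of 2 lower) without replicate 34, and the eIF4 median to 0.051 without replicate 34 and to 0.019 without replicate 12. Start site selection turned to −0.013 without replicate 32. Of the 6 groups, eIF3 and the other factors had medians that stayed below 0 whichever mouse was left out.

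The 3 members with the smallest unadjusted p were Eif3c, Eif4g3 and Eif1b. Eif3c, a core subunit of eIF3, was at 297, 261 and 283 CPM in the Ddx41+/+ mice and 260 and 238 CPM in the Ddx41+/- mice. The groups nearly met without overlapping (log2 fold change −0.17, standard error 0.0845, adjusted p = 0.544). Eif4g3 was at 67.2, 58.2 and 66.6 CPM against 68.7 and 78.6 CPM in Ddx41+/- mice (log2 fold change 0.20, adjusted p = 0.547). Eif1b was at 29.2, 32.1 and 31.6 CPM against 28.7 and 22.4 CPM (log2 fold change −0.26, adjusted p = 0.563). In both genes replicate 34, the library with the fewest counts, lay farther from the Ddx41+/+ mice than replicate 32.

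With Trp53+/-, again no member passed the adjusted threshold (0.0422% of tested genes, 5 genes), and none had an unadjusted p under 0.05 by edgeR or DESeq2 (3.75% of tested genes). Of 41 members, 36 were lower in Ddx41+/- R2 cells, with a median log2 fold change of −0.074 (all tested genes −0.0050, 51.2% lower). All 12 eIF3 genes were lower (median −0.092), as were 9 of 11 eIF4 genes (−0.074), 4 of 5 eIF2B genes (−0.074), both eIF2 genes (−0.038), all 6 other factors (−0.050) and 3 of 5 genes of start site selection (−0.015, turning to 0.034 without replicate 46 and 0.0022 without replicate 23). This evenness rested in part on replicate 22 of the Ddx41+/+ Trp53+/- mice, which was the highest of its 3 mice for 11 of 12 eIF3 genes and 28 of 41 members. Without it the eIF3 median was −0.027 with 9 of 12 lower, and the median of all members −0.031 with 31 of 41 lower. The other factors were then at −0.0049 (3 of 6 lower), eIF2B at −0.033 and eIF4 at −0.041. Without replicate 46 of the Ddx41+/- Trp53+/- mice, 8 of 12 eIF3 genes were lower, and the medians were −0.0092 for eIF2B (3 of 5) and −0.015 for the other factors (4 of 6). Without replicate 47 the eIF2 median turned to 0.013 (1 of 2 lower).

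Eif3l, a peripheral eIF3 subunit, had the smallest p with Trp53+/-. It was at 162, 127 and 124 CPM in the Ddx41+/+ mice, where replicate 22 stood apart, and 117 and 124 CPM in the Ddx41+/- mice (log2 fold change −0.18, standard error 0.105, adjusted p = 1.00). Eif3c was at 273, 237 and 249 CPM against 220 and 239 CPM (log2 fold change −0.14), and Eif2b5 at 38.0, 26.7 and 26.0 CPM against 22.5 and 27.4 CPM (log2 fold change −0.27), both overlapping between genotypes.

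**Figure D2:**
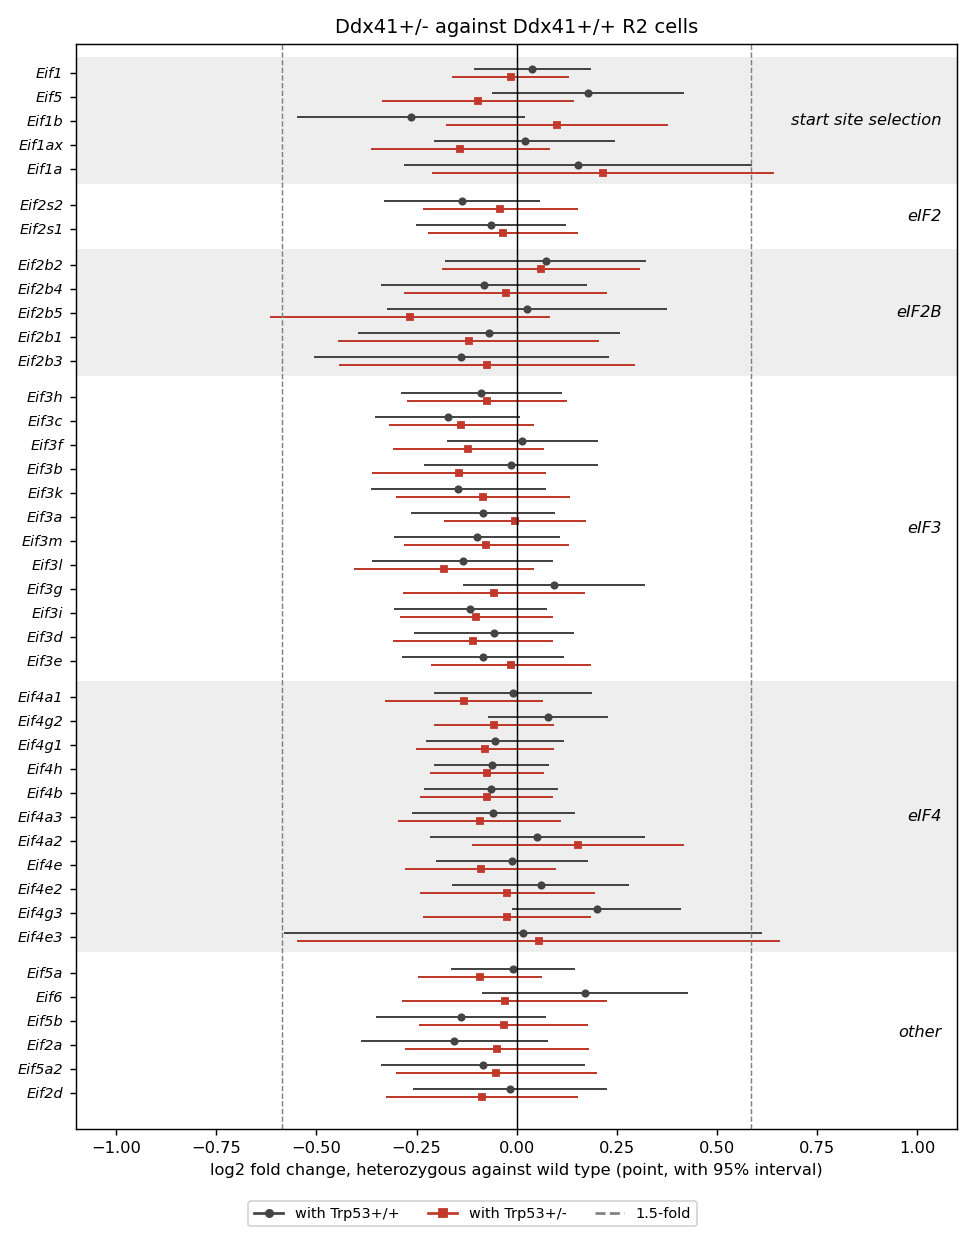
Log2 fold change of each member in Ddx41+/- against Ddx41+/+ R2 cells, with Trp53+/+ (circles, 2 against 3 mice) and with Trp53+/- (squares, 2 against 3 mice). Bars are 95% intervals and dashed lines mark 1.5-fold, which 39 and 38 of the 41 intervals do not reach on either side.

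The intervals bound what these mice could have hidden. The 95% interval of the fold change lay within 1.5-fold in both directions for 39 of 41 members with Trp53+/+ and 38 of 41 with Trp53+/-, against 51.3% and 54.7% of tested genes. All 12 eIF3 genes and both eIF2 genes were so bounded in both comparisons. The widest interval in both was that of Eif4e3, from −0.58 to 0.61 with Trp53+/+ and from −0.54 to 0.65 with Trp53+/-. The median member varied by a log2 SD of 0.105 between mice of 1 genotype, against 0.189 for tested genes detected in every library. The tested genes were not matched to the members in level. Neither the interval shares nor the SDs therefore show that initiation factor mRNAs are unusually stable. Eif4h, a helper of the eIF4A helicases, varied least (0.0361) and Eif4e3 most (0.375).

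The effects of Ddx41 loss in the 2 Trp53 genotypes did not differ detectably. In the test of their difference, 0 of 41 members passed the adjusted threshold (0.0675% of tested genes) and 0 an unadjusted p under 0.05 by edgeR or DESeq2 (5.01% of tested genes). The smallest p values were those of Eif1b (difference in log2 fold change 0.37, 95% interval −0.028 to 0.76), Eif5 (−0.28, interval −0.61 to 0.060) and Eif4g3 (−0.22, interval −0.52 to 0.071), each with an adjusted p of 1.00.

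When the Ddx41 genotypes were compared over both Trp53 genotypes (4 against 6 mice), no member passed the adjusted threshold, against 0.144% of tested genes (17 genes). At an unadjusted p under 0.05 there were 2 members by edgeR and by DESeq2, against 8.98% of tested genes, a share no higher than the background. They were Eif3c (log2 fold change −0.16, 95% interval −0.28 to −0.034, adjusted p = 0.448) and Eif3l (−0.16, interval −0.31 to −0.0054, adjusted p = 0.536). Both overlapped between genotypes. The third smallest p was that of Eif3i, a scaffold subunit of eIF3 (log2 fold change −0.11, adjusted p = 0.625). Of the eIF3 genes 11 of 12 were lower (median −0.082), and with each mouse left out in turn 11 or 12 were lower, with medians from −0.11 to −0.047. Lower values were not particular to eIF3. The medians were −0.095 for eIF2B (4 of 5 lower), −0.069 for eIF2 (2 of 2) and −0.060 for the other factors (5 of 6). They were −0.051 for eIF4 (6 of 11) and 0.012 for start site selection (2 of 5). Of all members 30 of 41 were lower, against 49.9% of tested genes. In this comparison every member's interval lay within 1.5-fold.

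The Trp53 genotypes were then compared, to ask what a missing Trp53 allele did by itself. With Ddx41+/+, no member passed the adjusted threshold (0.988% of tested genes, 117 genes), and 3 had an unadjusted p under 0.05 by edgeR and by DESeq2, or 3 of 41 against 9.44% of tested genes. Eif1 was at 782, 761 and 735 CPM in the Trp53+/+ mice and 816, 876 and 872 CPM in the Trp53+/- mice, without overlap (log2 fold change 0.17, standard error 0.0604, adjusted p = 0.303). Eif2b3 was at 15.03, 17.7 and 16.1 CPM against 13.0, 12.9 and 10.9 CPM, also without overlap (log2 fold change −0.41, standard error 0.153, adjusted p = 0.346). Eif5b, the GTPase that joins the ribosomal subunits, was at 97.7, 98.0 and 109 CPM against 99.0, 82.1 and 83.9 CPM, where replicate 22 overlapped (log2 fold change −0.20, adjusted p = 0.457). By complex the medians were −0.14 for eIF2B (4 of 5 lower), −0.12 for eIF2 (2 of 2), −0.025 for eIF3 (9 of 12), −0.033 for eIF4 (7 of 11) and −0.080 for the other factors (4 of 6). Start site selection ran the other way, with a median of 0.085 and 4 of 5 genes higher, and lay between 0.031 and 0.15 over the fits without 1 mouse. The median of all members was −0.041 (27 of 41 lower, all tested genes 0.00050). Without replicate 11 or replicate 23 the eIF3 median turned to 0.0063 or 0.017 with 6 of 12 lower, without replicate 24 it was 0, and without replicate 22 it was −0.11 with 12 of 12 lower, so no direction was resolved for eIF3. The eIF4 median also turned, to 0.0032 without replicate 11 and 0.0030 without replicate 23 (5 of 11 lower each). The eIF2B median ran from −0.075 without replicate 11 to −0.23 without replicate 22, and that of eIF2 from −0.15 to −0.088, all below 0. The median of all members was between −0.0079 (without replicate 23) and −0.074 (without replicate 22).

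With Ddx41+/- (2 against 2 mice), no member passed the adjusted threshold (0.177% of tested genes, 21 genes) and none an unadjusted p under 0.05 by edgeR or DESeq2 (5.41% of tested genes). Of 41 members 31 were lower in Trp53+/- R2 cells (median log2 fold change −0.068, all tested genes −0.0045, 50.9% lower). The medians were −0.27 for eIF2B (4 of 5 lower), −0.082 for eIF4 (10 of 11), −0.060 for eIF3 (7 of 12), −0.060 for eIF2 (2 of 2) and −0.077 for the other factors (6 of 6). Start site selection had a median of 0.068 with 3 of 5 genes higher, which turned to −0.040 without replicate 34. Only 2 of the 5 eIF2B intervals lay within 1.5-fold. Over the fits without 1 mouse the eIF2B median stayed between −0.27 and −0.20, that of eIF4 between −0.11 and −0.059 and that of eIF3 between −0.091 and −0.015 (without replicate 34), whereas eIF2 turned to 0.080 without replicate 32. Eif3g, an RNA-binding subunit of eIF3, was at 58.3 and 69.9 CPM in Trp53+/+ mice and 50.3 and 57.2 CPM in Trp53+/- mice (log2 fold change −0.25, adjusted p = 0.914). Eif2b5 was at 30.4 and 32.9 CPM against 22.5 and 27.4 CPM (log2 fold change −0.34, adjusted p = 0.932). Eif2b3 was at 16.4 and 12.8 CPM against 10.4 and 12.8 CPM and overlapped (log2 fold change −0.35, adjusted p = 0.943).

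**Figure D3:**
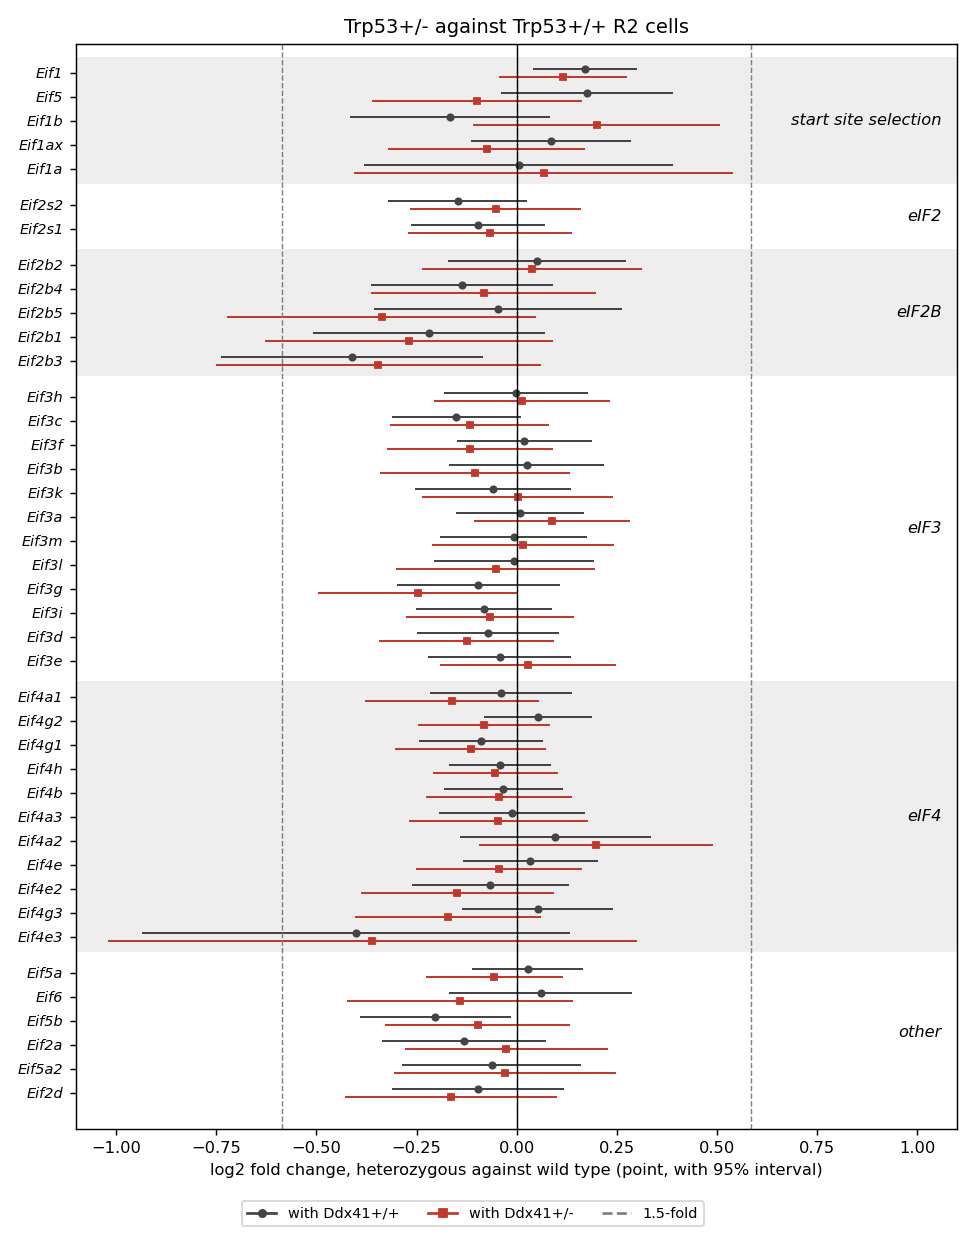
Log2 fold change of each member in Trp53+/- against Trp53+/+ R2 cells, with Ddx41+/+ (circles, 3 against 3 mice) and with Ddx41+/- (squares, 2 against 2 mice). Bars are 95% intervals and dashed lines mark 1.5-fold. Eif2b3 and Eif4e3 lie farthest to the left in both, and only the points of Eif1, Eif2b3 and Eif5b with Ddx41+/+ have intervals that leave out 0.

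Over both Ddx41 genotypes (5 against 5 mice) the Trp53 comparison had the most members at an unadjusted p under 0.05, 6 of 41 by edgeR and 5 by DESeq2, against 11.2% of tested genes. The share of tested genes was also the highest of the 7 comparisons here. The member count is near it and is not read as a result about the members. No member passed the adjusted threshold (0.439% of tested genes, 52 genes). Eif2b3 (log2 fold change −0.38, 95% interval −0.63 to −0.14, adjusted p = 0.198) and Eif1 (0.15, interval 0.053 to 0.24, adjusted p = 0.198) had the smallest p values. Eif1 was higher in 5 of 5 Trp53+/- mice than in any Trp53+/+ mouse, whereas for Eif2b3 the Trp53+/+ replicate 34, at 12.8 CPM, fell among the Trp53+/- mice. Eif3c (−0.14, adjusted p = 0.372), Eif5b (−0.16), Eif2b1 (−0.24) and Eif3g (−0.16) made up the rest, all overlapping between genotypes. By complex, eIF2B had the lowest median (−0.16, 4 of 5 lower), and Eif2b2 alone was higher. With each mouse left out in turn it stayed at 4 of 5 lower, with medians from −0.28 to −0.12, and was −0.28 without replicate 22. The medians were −0.0975 for eIF2 (2 of 2 lower), −0.070 for the other factors (6 of 6) and −0.038 for eIF4 (9 of 11). They were −0.031 for eIF3 (9 of 12 lower) and 0.030 for start site selection (4 of 5 higher). Of all members 31 of 41 were lower, against 50.7% of tested genes.

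**Figure D4:**
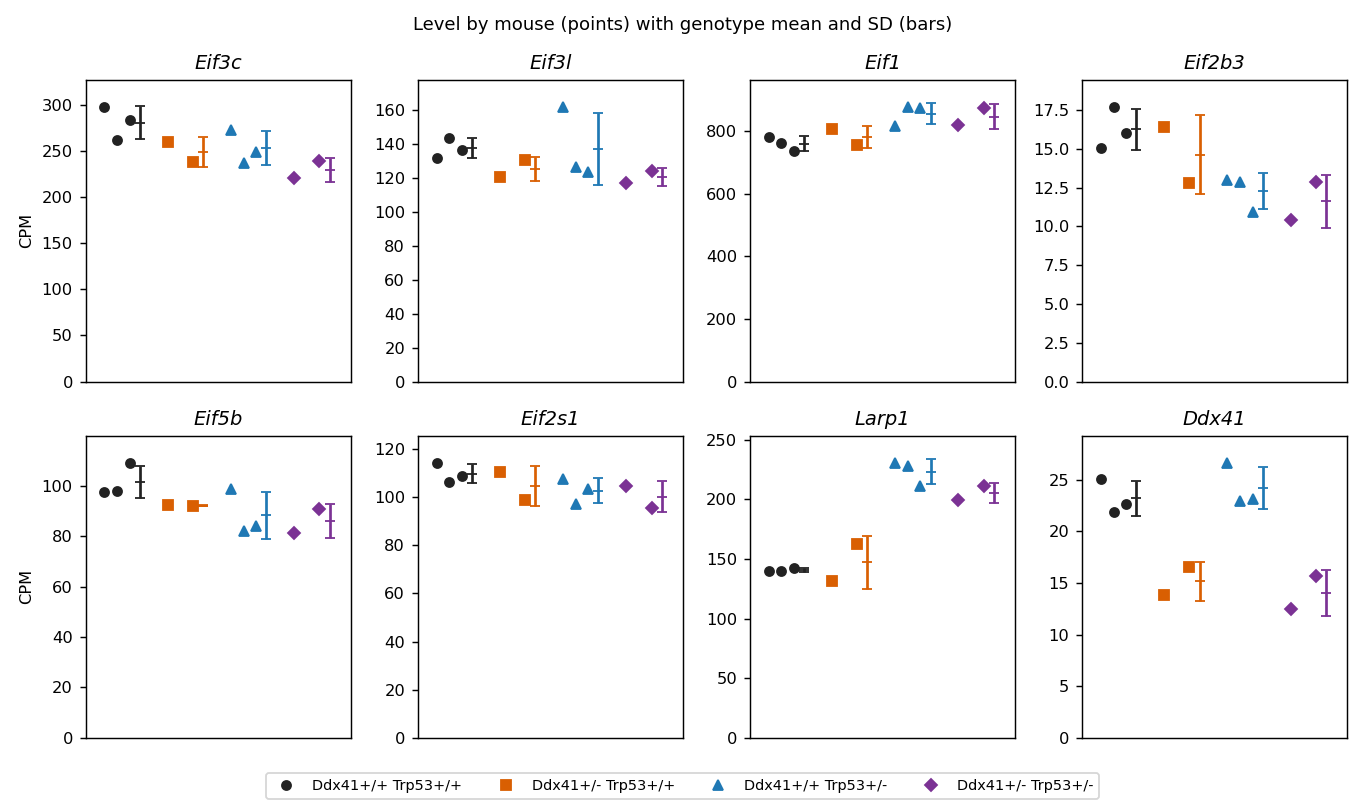
CPM of 6 members, of Larp1 and of the targeted gene Ddx41 in each mouse, on axes that start at 0, with the mean and SD of each genotype beside the points. The 5 Trp53+/- mice lie above the 5 Trp53+/+ mice for Eif1 and Larp1, and the 4 Ddx41+/- mice below the 6 Ddx41+/+ mice for Ddx41.

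The levels of whole complexes were also followed from mouse to mouse. For each mouse, log2 CPM of a gene was set against the gene's mean over the 10 mice and averaged over a complex. For eIF3 the values were 0.053, 0.12 and −0.017 in the Ddx41+/+ Trp53+/+ mice (replicates 10, 11 and 12) and −0.058 and 0.019 in the Ddx41+/- Trp53+/+ mice (32 and 34). They were 0.15, −0.069 and −0.045 in the Ddx41+/+ Trp53+/- mice (22, 23 and 24) and −0.12 and −0.039 in the Ddx41+/- Trp53+/- mice (46 and 47). Replicates 11 and 22 had all 12 eIF3 genes above their means and replicate 46 had none. The Ddx41+/+ Trp53+/- mice alone ran from −0.069 to 0.15, so mice of 1 genotype differed by as much as the genotypes. The elongation and termination genes stood at 0.10 and 0.090 in replicates 11 and 22 and −0.068 in replicate 46.

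For eIF2B the 5 Trp53+/+ mice lay at 0.035 to 0.19 and the Trp53+/- mice at −0.23 to 0.091, with replicate 22 alone in the Trp53+/+ range. For eIF4 the 5 Trp53+/- mice (−0.060 to −0.0084) lay below the 5 Trp53+/+ mice (0.018 to 0.049), also with DESeq2's size factors (−0.059 to −0.0066 against 0.019 to 0.048). That gap rested on Eif4e3. Without this gene, a choice made after the values were seen, the ranges were −0.044 to 0.042 and −0.012 to 0.048 and overlapped.

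**Figure D5:**
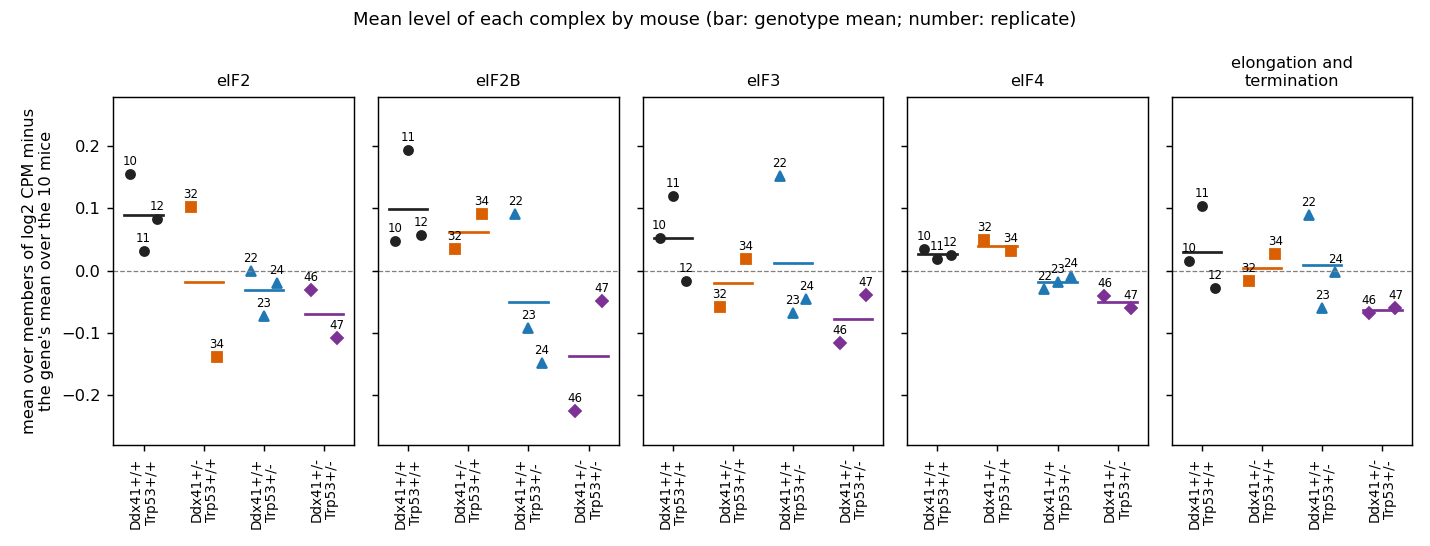
Mean over the members of eIF2, eIF2B, eIF3 and eIF4, and over 14 elongation and termination genes, of log2 CPM relative to each gene's mean over the 10 mice. Points are mice with their replicate numbers and bars are genotype means. Replicates 11 and 22 are high for eIF3 (0.12 and 0.15) and replicate 46 is low for eIF2B and eIF3 (−0.23 and −0.12).

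Members with and without the E-box were also set side by side. In the comparison of Ddx41 genotypes over both Trp53 genotypes, the median log2 fold change was −0.067 in 10 members with it and −0.069 in 23 without. In the Trp53 comparison over both Ddx41 genotypes it was −0.035 and −0.085. These differences were not tested.

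Among 35 other genes of initiation (kinases and phosphatases of eIF2, eIF4E-binding proteins, poly(A)-binding proteins, helicases and others), 32 were tested and 1 was called, with Ddx41+/+ and over both Ddx41 genotypes in the Trp53 comparison. Larp1, a repressor of mRNAs that begin with a terminal oligopyrimidine tract, was at 140, 140 and 143 CPM in Ddx41+/+ Trp53+/+ mice and 230, 228 and 211 CPM in Ddx41+/+ Trp53+/- mice. It rose without overlap (log2 fold change 0.66, 95% interval 0.50 to 0.83, adjusted p = 0.000466). With Ddx41+/- it was at 132 and 163 CPM in Trp53+/+ mice and 199 and 212 CPM in Trp53+/- mice (log2 fold change 0.49, interval 0.28 to 0.69, adjusted p = 0.0595). Over both Ddx41 genotypes the log2 fold change was 0.59 (interval 0.46 to 0.72, adjusted p = 0.000104). Larp1 (chr11:58009064-58062034) lies 11.5 Mb from Trp53 on chromosome 11. Of 345 tested genes within 15 Mb of Trp53, 3.19% were called with Ddx41+/+, against 0.988% of all tested genes. Sequence linked to the Trp53 knockout allele and the loss of Trp53 itself cannot be told apart. The members Eif4a1, 75.1 kb from Trp53, and Eif5a, 325 kb from it, were not called. Eif1 and Eif4a3 lie on the same chromosome, 30.7 Mb and 49.7 Mb from Trp53, and were not called either. For the higher Eif1 level in Trp53+/- mice, linked sequence and loss of Trp53 also cannot be told apart.

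The genes of the same complexes outside the symbol rule were not called either. Eif2s3y was at 41.2 and 53.5 CPM in Ddx41+/- Trp53+/+ mice and 62.3 and 70.0 CPM in Ddx41+/- Trp53+/- mice (log2 fold change 0.50, 95% interval 0.22 to 0.77, adjusted p = 0.268), and Eif2s3x had a log2 fold change of −0.039 in that comparison. Between the Ddx41 genotypes over both Trp53 genotypes, Eif2s3x had a log2 fold change of −0.17 (interval −0.32 to −0.014, adjusted p = 0.527), with overlap. Eif2s3y was higher in Ddx41+/- mice with Trp53+/- (0.33, interval 0.079 to 0.57), without overlap, but not with Trp53+/+ (−0.074, interval −0.33 to 0.18). The difference between these effects was 0.40 (interval 0.043 to 0.76, adjusted p = 0.94). Of the helicases, Ddx3y had 0.18 and Ddx3x −0.066 between the Trp53 genotypes over both Ddx41 genotypes, with adjusted p of 0.321 and 0.677. Of 16 elongation and termination genes, 14 were tested and 0 were called in any comparison, by edgeR. At an unadjusted p under 0.05 there were 4 of 14 for Ddx41 over both Trp53 genotypes, against 8.98% of tested genes, and 3 of 14 for Trp53 over both Ddx41 genotypes, against 11.2%, with 0 or 1 in the other comparisons. Their median log2 fold change was −0.061 between the Ddx41 genotypes and −0.060 between the Trp53 genotypes over both genotypes of the other gene, beside −0.067 and −0.037 for the initiation factors. The Ddx41 value for the initiation factors was −0.043 without replicate 11 and −0.035 without replicate 22. Their Trp53 value was −0.056 without replicate 12, −0.086 without replicate 22 and −0.018 without replicate 23.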

How the data were processed

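RNA-seq counts from R2 cells of 10 mice were analysed. The deposited values are raw counts of reads for each gene symbol, and the authors did not normalize them. The submitters' processing notes name FastQC 0.11.7, HISAT2 2.0.5, featureCounts 1.5.2 and mm10. The annotation and the strand setting are not given in the sources used here. The paper names a poly(A) kit and the labels a stranded one. All 10 sample columns were used, and 0 columns belonged to no sample. The deposited table's name marks 35 and 45 as removed. No sample label holds these numbers, the reason is not given in the sources used here, and they were not analysed here. No batch is given in the labels.

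Counts were tested in R 4.3.3 with edgeR 4.0.16 (filterByExpr by genotype, TMM scaling, 1 mean per genotype over all libraries, or an additive model, quasi-likelihood F-test, two-sided, Benjamini-Hochberg adjustment over 11846 genes). A call was an adjusted p under 0.05, with no limit on the fold. DESeq2 1.42.0 was an alternative. No fit dropped a mouse unless stated. The procedure was also run on simulated counts with known changes. Its outcome is not reported here and is not used as a measure of power for the members. A standard error is the absolute log2 fold change divided by the square root of F, and intervals are 95%. Gene lengths and positions are from GENCODE M21 (GRCm38). Shared sequence is the share of 75-base stretches of the longest transcript found in another gene. Log2 CPM had no pseudocount, since every member had counts in every library. Summaries and figures were made in Python 3.11.15 (numpy 2.4.6, pandas 2.3.3, matplotlib 3.10.9).

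Members and lists were chosen with earlier results of these data known. With tests are named, per comparison, the members with an adjusted p under 0.05 or, where there are none, the 3 with the smallest p, and where the text counts up to 6 members at an unadjusted p, those too. By level are named the highest and lowest of each complex, eIF2, Eif2b5 and all paralogue sets. Of other lists, called genes and the subunits and helicases outside the rule are named. The members beyond the first 3 at an unadjusted p, Eif2b1, Eif2b4 and Eif2ak1 were added with their values already in view. The values of 2 or 3 mice per genotype set the precision, and counts of PCR-amplified reads are not independent molecules. The p-values set a difference between genotypes against the spread between recipients, and whether recipients shared a donor is not given.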

Additional observations from a re-analysis of the deposited data

How the results depend on the processing

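No member was called in any of the 7 comparisons, and this count stayed at 0 in 100 of 103 alternatives: DESeq2, edgeR with the size factors of DESeq2, leaving low counts unfiltered, at least 10 counts in every library, a fold limit of 1.5 as well, only the genotypes compared, Ddx41+/+ Trp53+/+ replicate 12 and Ddx41+/+ Trp53+/- replicate 23 left out together, and each mouse left out in turn (50 fits, 0 to 0 members called). The other 3 alternatives took an unadjusted p under 0.05 and gave 3 members for Trp53 with Ddx41+/+, 2 for Ddx41 over both Trp53 genotypes and 6 for Trp53 over both Ddx41 genotypes. The 21 fold changes of members named by smallest p kept their direction in 267 of 267 alternatives. These members were chosen by p in the same data, and the alternatives share all or most libraries. The kept direction is therefore no independent support for these changes. No paired analysis was possible because the labels link no mouse of 1 genotype to a mouse of another. Larp1 with Ddx41+/- passed the adjusted threshold with DESeq2 (log2 fold change 0.49), without the filter (0.49), with at least 10 counts in every library (0.49) and without Ddx41+/- Trp53+/+ replicate 34 (0.64). Medians of complexes without each mouse in turn, chosen after the data were seen, moved by less than 1 SD between mice in 160 of 200 cases. This count concerns the size of a move and not its direction. Several medians changed sign, as given above, so it does not show that their directions were stable. The longest transcript in place of the union of exons moved the RPKM of 36 of 41 members by more than 1 SD, and the highest of eIF4 was then Eif4h (127 RPKM) and of eIF2B Eif2b4 (20.8 RPKM). With 2 or 3 mice per genotype, changes of members within the intervals given were not excluded.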
